A study of Mus musculus with 4 samples.

Results

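10 genes encoding gut hormones and granule proteins were followed in the spheroid over organoid ratios of 4 culture pairs. They were taken as a list of names, chosen with earlier results of these data known. The list holds the hormone precursor genes Gcg, Sct, Tac1, Cck, Gip, Sst, Nts and Pyy and the chromogranin genes Chga and Chgb. That is 10 of the 15123 genes with a named gene probe. All 10 were on the array, 8 through 1 probe and 2 (Chga and Nts) through 2 probes that were averaged.

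The cultures were CD1 wild-type mouse small intestinal epithelium grown ex vivo in Matrigel, in medium with fetal bovine serum, EGF, Noggin and R-spondin1. Spheroids, which are hollow cysts, and organoids, which bud, were picked apart from the culture of an embryo or newborn and carried through 3 passages. There were 2 pairs from embryonic day 16 (E16), 1 from E18 and 1 from postnatal day 0 (P0). Each pair comes from a given animal, and no label says whether the E16 pairs had different embryos or litters, so the spread between pairs may be partly technical. Each pair gave 1 log2 ratio per gene, from 2-colour arrays with the dyes swapped. All ratios below are log2 of spheroid over organoid, the likely direction. No label states the numerator, and every direction would turn if it were the other way round. A ratio says nothing of the level itself, because no intensities were used, and the number of arrays limits the precision. In such bulk samples fewer cells of a type and less RNA per cell cannot be told apart.

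Enteroendocrine cells are scattered, hormone-secreting cells of the gut epithelium. They arise from crypt progenitors that switch on the transcription factor Neurog3, and they store peptides in dense granules whose cores are built with chromogranins. Different cells are known for different hormones: Sct, Cck and Gip mostly in the upper small intestine, Gcg, Pyy and Nts more towards its end, and Tac1 and Sst scattered along it. In adult organoids grown with these factors such cells keep forming, as part of the differentiated crypt progeny.

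All 10 mean ratios lay below -1, against 1.69% of all genes, and their median was -2.01 (-0.003 over all genes). This list and the others were chosen with earlier results of these data known, so such shares describe the lists and test nothing. Lowest was Gcg at -3.59 and highest Nts at -1.23. Leaving out 1 pair brought 3 of the means above -1: Pyy to -0.64 and Nts to -0.78 without the E18 pair, and Sst to -0.77 and Nts to -0.84 without the P0 pair. In limma, 3 of the 10 were past an adjusted p of 0.05, all lower in spheroids: Chgb, Tac1 and Sct. Of all genes, 1.34% passed lower and 4.36% passed in either direction. 8 of the 10 had an unadjusted p under 0.05, all lower, as did 8.99% of all genes in that direction. 9 of the 10, all but Nts, were below 0 in each of the 4 pairs, as were 14.4% of all genes. The 3 genes that passed had the smallest spread between pairs, with SDs of up to 0.548, whereas the SDs of the other 7 ran from 0.693 to 2.23.

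**Figure D1:**
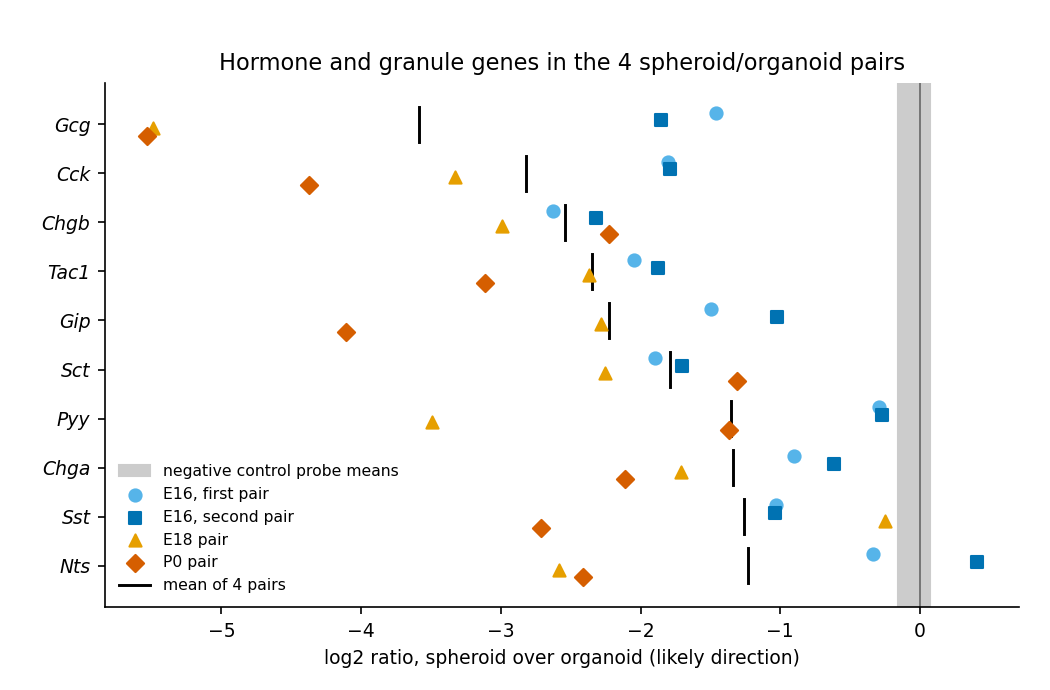
The log2 ratio of spheroid over organoid is plotted for each of the 10 genes in each of the 4 pairs, with genes ordered by their mean (black bar) and the grey band spanning the mean ratios of the 94 negative control probes. All symbols but 1 lie left of 0, and for Gcg the E18 and P0 symbols lie near -5.5 while the E16 symbols lie between -1.86 and -1.46.

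The chromogranins are acidic proteins that condense hormones in the granule. Chgb (Entrez gene 12653) had ratios of -2.62 and -2.32 in the E16 pairs, -2.99 in the E18 pair and -2.23 in the P0 pair. It was thus low in every pair, with no order by stage. Its mean was -2.54 ± 0.35 (SD, n = 4), which is 5.82-fold lower in spheroids, with a 95% confidence interval of -2.95 to -2.13 and an adjusted p of 0.0130. Chga (Entrez gene 12652) had -0.90 and -0.62 in the E16 pairs, -1.71 in the E18 pair and -2.11 in the P0 pair. Both later ratios lay below both E16 ratios. Its mean was -1.33 ± 0.69 (SD, n = 4), and it did not pass (adjusted p = 0.105). The 2 Chga probes had means of -1.46 and -1.21 and ran in the same order over the pairs.

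Sct (Entrez gene 20287) encodes secretin, which makes the pancreas release bicarbonate. Its ratios were -1.90 and -1.70 in the E16 pairs, -2.25 in the E18 pair and -1.31 in the P0 pair, so the E16 values lay between those of the later pairs. The mean of -1.79 ± 0.39 (SD, n = 4) is 3.46-fold lower in spheroids and passed with an adjusted p of 0.0250 (95% confidence interval -2.26 to -1.32). Cck (Entrez gene 12424), whose peptide empties the gallbladder and signals satiety, had -1.80 and -1.79 in the E16 pairs, -3.32 in the E18 pair and -4.37 in the P0 pair. The E16 pairs were nearly equal and the later pairs lay far below them. Its mean was -2.82 ± 1.26 (SD, n = 4), and it missed the threshold (adjusted p = 0.0810). Gip (Entrez gene 14607), an incretin that raises insulin release after a meal, had -1.49 and -1.02 in the E16 pairs, -2.28 in the E18 pair and -4.11 in the P0 pair. It was lowest in the P0 pair, 17.3-fold below organoids there. Its mean was -2.23 ± 1.36 (SD, n = 4), with an adjusted p of 0.137.

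Gcg (Entrez gene 14526) encodes proglucagon, from which gut cells cut the glucagon-like peptides. Its ratios were -1.46 and -1.86 in the E16 pairs, -5.49 in the E18 pair and -5.54 in the P0 pair. The later pairs were thus alike at about the lowest values on the array: ranked from the lowest ratio up among the 15123 genes, Gcg was number 1 in the P0 pair and number 3 in the E18 pair, against numbers 262 and 144 in the E16 pairs. Its mean of -3.59 ± 2.23 (SD, n = 4) did not pass (adjusted p = 0.142). Pyy (Entrez gene 217212), which slows gut transit and often shares a cell with Gcg, had -0.29 and -0.27 in the E16 pairs, -3.49 in the E18 pair and -1.37 in the P0 pair. It was close to 0 at E16 and lowest in the E18 pair. Its mean was -1.35 ± 1.51 (SD, n = 4; adjusted p = 0.350). Nts (Entrez gene 67405), the precursor of neurotensin, had -0.34 and 0.41 in the E16 pairs, -2.59 in the E18 pair and -2.41 in the P0 pair. The second E16 pair of Nts was the one value above 0 among the 10 genes. The mean of Nts was -1.23 ± 1.5 (SD, n = 4; adjusted p = 0.389). Its probes, with means of -1.45 and -1.01, both had the later ratios below the E16 ratios, but one was lower in the E18 pair and the other in the P0 pair.

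Tac1 (Entrez gene 21333) encodes substance P and neurokinin A, found in serotonin-storing gut cells and in enteric neurons. It had ratios of -2.05 and -1.87 in the E16 pairs, -2.37 in the E18 pair and -3.11 in the P0 pair. All pairs were low, the P0 pair most. Its mean was -2.35 ± 0.55 (SD, n = 4), 5.10-fold lower in spheroids, with a 95% confidence interval of -2.997 to -1.71 and an adjusted p of 0.0270. Sst (Entrez gene 20604), the precursor of somatostatin, which restrains the release of other hormones, had -1.03 and -1.04 in the E16 pairs, -0.25 in the E18 pair and -2.71 in the P0 pair. The E16 pairs fell between the later pairs, which were far apart. Its mean was -1.26 ± 1.04 (SD, n = 4; adjusted p = 0.230).

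The calls on Chgb, Tac1 and Sct needed both E16 pairs. Without the first or the second E16 pair none of the 10 genes passed in limma (7 with an unadjusted p under 0.05 in either case), and for Chgb the adjusted p was then 0.130 and 0.0888. Over all genes 2 and 0 passed in those fits, against 660 with all 4 pairs, so the loss was not particular to these genes. Without the P0 pair Chgb and Tac1 passed and Sct did not (adjusted p = 0.0542). Without the E18 pair Chgb and Sct passed and Tac1 did not (adjusted p = 0.0590). The means themselves moved little, between -2.64 and -2.39 for Chgb, -2.51 and -2.10 for Tac1 and -1.95 and -1.64 for Sct over all alternatives. The test takes the 4 pairs as independent, yet no label says whether the E16 pairs had different embryos or litters. Across genes the E16 pairs correlated at 0.916 and the E18 and P0 pairs at 0.622. Genes are not independent replicates, and such a correlation does not tell whether the pairs are independent. With the E16 pairs averaged to 1 pair, 0 of the 10 passed in limma (7 with an unadjusted p under 0.05), and 4 of all genes did.

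By mean ratio the order from the lowest up was Gcg, Cck, Chgb, Tac1, Gip, Sct, Pyy, Chga, Sst and Nts. Only neighbours in this order were compared, which sorting by the same means places close together, so the order as a whole was not tested. No neighbours differed beyond their spread over pairs. The widest step, Gcg minus Cck, was -0.76 ± 1.13 (SD, n = 4), with Gcg lower in 3 of 4 pairs and an exact sign-flip permutation p of 0.375, two-sided. The other 8 steps had exact p of 0.500 or more, unadjusted over 9 comparisons, and 4 pairs cannot give a p under 0.125. The order also changed with the pair. Chgb was the lowest of the 10 in both E16 pairs and Gcg in both later pairs. The highest was Pyy in the first E16 pair, Nts in the second, Sst in the E18 pair and Sct in the P0 pair.

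The stage comparison asked whether the ratios of the later pairs (E18 and P0) differed from those of the E16 pairs. The median of the 10 genes was -2.55 in the later pairs, against -1.46 in the E16 pairs. For 7 of the 10, Gcg, Cck, Tac1, Gip, Pyy, Chga and Nts, both later ratios lay below both E16 ratios, as they did for 24.8% of all genes. Gcg averaged -5.51 in the later pairs, 45.7-fold below organoids, and -1.66 in the E16 pairs, 3.16-fold below. This difference of -3.85 (95% confidence interval -4.35 to -3.36) was the lowest among the 15123 genes, number 1 counted from the most negative. Nts averaged -2.50 in the later pairs and 0.04 in the E16 pairs, and Pyy averaged -2.43 in the later pairs and -0.28 in the E16 pairs. The E16 mean of Nts averages -0.34 and 0.41, on both sides of 0, and that of Pyy -0.29 and -0.27. Both later means were well below 0. Cck averaged -3.85 in the later pairs and -1.79 in the E16 pairs. Gip averaged -3.20 in the later pairs and -1.26 in the E16 pairs. Chga averaged -1.91 in the later pairs and -0.76 in the E16 pairs. These genes were already below 0 at E16 and lay lower later. The 95% confidence interval of the difference ran from -4.66 to 0.37 for Pyy and -4.18 to 0.30 for Gip, so both included 0. It ran from -3.45 to -1.62 for Nts, -3.31 to -0.805 for Cck and -1.75 to -0.55 for Chga.

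For the other genes the difference was smaller. Tac1 averaged -2.74 in the later pairs and -1.96 in the E16 pairs. Sst averaged -1.48 in the later pairs and -1.03 in the E16 pairs. Chgb averaged -2.61 in the later pairs and -2.47 in the E16 pairs, and Sct averaged -1.78 in the later pairs and -1.80 in the E16 pairs. The intervals of these differences were wide, from -1.70 to 0.14 for Tac1, -1.12 to 0.85 for Chgb, -1.13 to 1.17 for Sct and -3.36 to 2.47 for Sst, so a change of 1 log2 unit lay within each of them.

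None of the 10 passed in limma after adjustment over all genes, and 0% of all genes did (2883 genes and 4 of the 10 had an unadjusted p under 0.05). The adjusted p was 0.0829 for Gcg, equal to the smallest of all genes, and 0.0926 for Nts, 0.124 for Chga and 0.143 for Cck. For the other 6 it lay between 0.314 (Gip) and 0.992 (Sct). Against the E16 pairs, the E18 pair alone gave 4 calls (Cck, Gcg and Pyy lower, Sst higher) among 1544 over all genes, and the P0 pair alone gave 5 (Cck, Gcg, Gip, Pyy and Sst, all lower) among 443. In those fits the spread comes from the E16 pairs only, and the lone later pair is assumed to vary like them. For Sst these calls ran opposite ways, with a difference of 0.78 for the E18 pair (adjusted p = 0.0353) and -1.67 for the P0 pair (adjusted p = 0.0492).

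**Figure D2:**
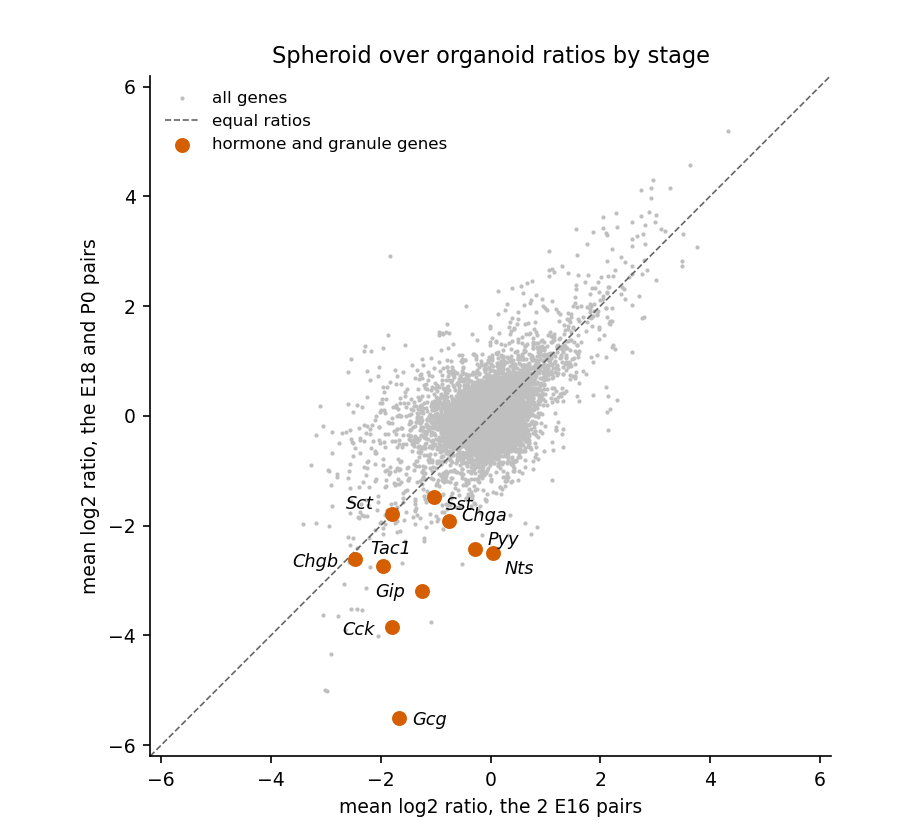
Each gene is placed by its mean log2 ratio in the 2 E16 pairs (horizontal) and in the E18 and P0 pairs (vertical), with all 15123 genes in grey and equal ratios on the dashed line. Gcg lies farthest below the line, at -1.66 and -5.51, while Chgb and Sct lie on or next to it.

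For 8 of the 10 genes, all but Gcg and Nts, the E16 pairs differed less from each other than the E18 and P0 pairs did. The ratios of the first and second E16 pair differed by a median of 0.24 in size, and by 0.74 at most (Nts). The median over all genes was 0.08. Between the E18 and the P0 pair the median difference was 0.86 in size (0.12 over all genes), and single hormones parted in both directions. Gcg differed by only 0.05 and Nts by 0.18 in size. Sst stood 2.46 higher in the E18 pair than in the P0 pair, Gip 1.83, Cck 1.05 and Tac1 0.75 higher. The E18 ratio minus the P0 ratio was -2.12 for Pyy, -0.95 for Sct and -0.77 for Chgb. With 1 pair at each of these stages, stage and animal cannot be told apart, and no test was made.

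**Figure D3:**
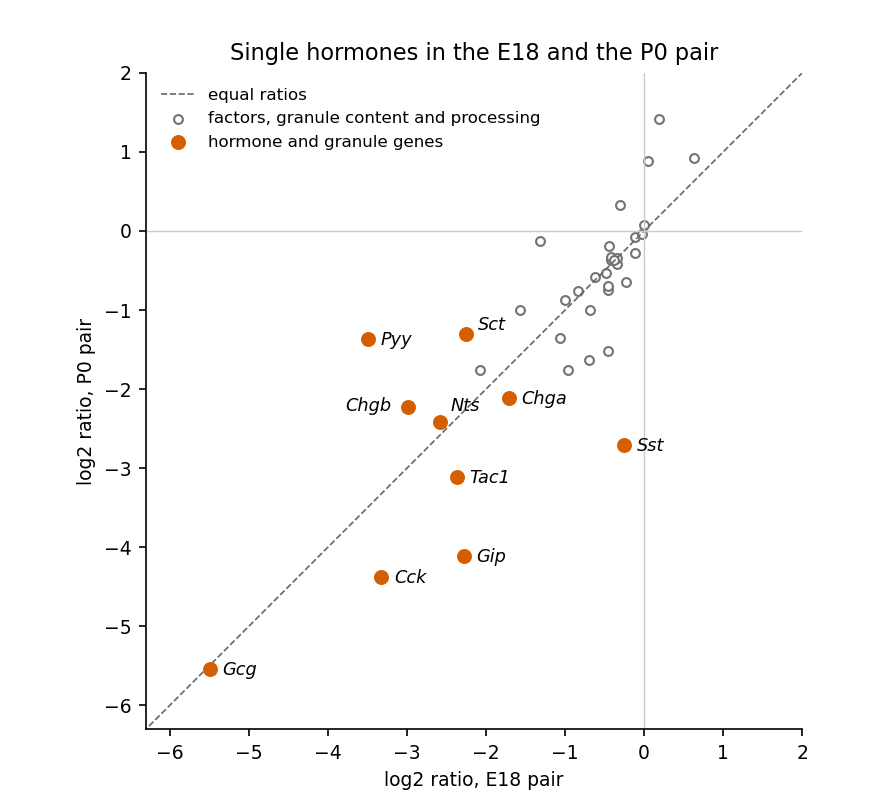
The log2 ratio in the E18 pair (horizontal) is set against that in the P0 pair (vertical) for the 10 genes (filled) and for the enteroendocrine factors and the genes of granule content and processing (open), with equal ratios on the dashed line. Sst, Gip, Cck and Tac1 lie below the line and Pyy, Sct and Chgb above it, with Gcg at the lower end of it.

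Sequences upstream of the start site are shown for the 3 genes that passed and for Gcg and Sst, which had the largest stage difference and the largest gap between the later pairs. They are the 250 bases before the start in RefSeq's annotation of build GRCm38.p6, printed on the gene's strand. All 10 genes matched the promoter table. Capitals mark 3 motifs searched on both strands: the cAMP response element TGACGTCA, its half-site TGACG (which the full element contains) and the E-box CAGATG, of the kind NeuroD factors bind. The Chgb window is chr2:132781392-132781641 on the plus strand, Tac1 chr6:7554811-7555060 plus, Sct chr7:141279134-141279383 minus, Gcg chr2:62483654-62483903 minus and Sst chr16:23890845-23891094 minus.
Chgb: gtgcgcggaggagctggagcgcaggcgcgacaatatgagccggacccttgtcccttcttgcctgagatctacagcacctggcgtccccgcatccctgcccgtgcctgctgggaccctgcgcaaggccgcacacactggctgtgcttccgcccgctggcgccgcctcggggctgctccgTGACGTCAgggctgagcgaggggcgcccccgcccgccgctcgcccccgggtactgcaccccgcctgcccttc
Tac1: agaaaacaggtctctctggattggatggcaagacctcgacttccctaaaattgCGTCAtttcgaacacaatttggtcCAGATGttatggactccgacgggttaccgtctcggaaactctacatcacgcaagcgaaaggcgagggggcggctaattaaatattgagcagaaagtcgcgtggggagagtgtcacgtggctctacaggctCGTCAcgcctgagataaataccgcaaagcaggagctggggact
Sct: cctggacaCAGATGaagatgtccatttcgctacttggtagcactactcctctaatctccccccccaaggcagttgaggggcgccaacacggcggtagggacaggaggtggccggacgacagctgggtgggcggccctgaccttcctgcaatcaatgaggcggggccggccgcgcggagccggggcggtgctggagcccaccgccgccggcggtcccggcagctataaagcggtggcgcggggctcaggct
Gcg: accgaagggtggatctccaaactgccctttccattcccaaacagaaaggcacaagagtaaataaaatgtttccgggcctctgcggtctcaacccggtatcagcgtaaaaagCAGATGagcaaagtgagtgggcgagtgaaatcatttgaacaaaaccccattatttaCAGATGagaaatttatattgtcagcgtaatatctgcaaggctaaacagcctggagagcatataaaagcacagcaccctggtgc
Sst: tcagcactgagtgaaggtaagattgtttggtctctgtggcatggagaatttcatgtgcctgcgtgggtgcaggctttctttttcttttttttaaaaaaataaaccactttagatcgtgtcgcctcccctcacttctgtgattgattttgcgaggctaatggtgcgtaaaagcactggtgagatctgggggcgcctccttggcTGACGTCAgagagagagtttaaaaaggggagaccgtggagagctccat

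The full element was in the windows of 2 of the 10 genes, Chgb and Sst, with its first base at -72 and -48 (-1 being the last base before the start). It was in 1.55% of the 32851 windows of this length in the table. The half-site was in 6 of the 10 (Cck, Chga, Chgb, Nts, Sst and Tac1) and in 17.8% of all windows. The E-box was in 4 of the 10 (Cck, Gcg, Sct and Tac1) and in 14.4% of all windows, with 2 copies in Gcg, at -139 and -83. Of the 3 genes that passed, Chgb held the full element and no E-box, Sct the E-box alone and Tac1 the half-site and the E-box. The motifs were chosen by hand, and a match is no more than these letters in this window.

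Other peptide genes of the gut lay near 0 for the most part. Of 17 measured, 13 means fell within -0.16 to 0.07, which the negative control probes spanned, as did 56.9% of all genes, and 0 passed in limma (2 with an unadjusted p under 0.05, both lower). 1 passed, lower, without the E18 pair or with array weights. The list's median was -0.04, against -0.003 over all genes. The 2 genes with an unadjusted p under 0.05 were the appetite hormone Ghrl, with -0.63 and -0.93 for E16, -2.04 in the E18 pair and -1.20 in the P0 pair (mean -1.20 ± 0.61, SD, n = 4, adjusted p = 0.101), and Iapp, amylin (mean -0.90 ± 0.54, SD, n = 4, adjusted p = 0.134). Ghrl was thus below 0 in every pair, as 9 of the 10 main genes were.

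Genes of granule content and hormone processing had a median of -0.26 over 11 measured. Of these, 0 passed lower and 1 passed higher, Pam, the enzyme that amidates peptide ends, with ratios of 0.92 and 0.63 in the E16 pairs, 0.63 in the E18 pair and 0.92 in the P0 pair. Its mean was 0.78 ± 0.17 (SD, n = 4; adjusted p = 0.0256), so it ran against the hormones. It passed with all 4 pairs and without the E18 pair, and missed without each of the others and with 1 probe per gene (adjusted p = 0.0626). For 10 of the 11 both later ratios lay below both E16 ratios (24.8% of all genes), Pam being the exception. None passed the stage comparison in limma (smallest adjusted p = 0.101, for Ptprn). Some of the differences were small, such as -0.088 for Pcsk1n and -0.030 for Ptprn2. Of the 11 mean ratios, 3 lay inside the negative control range (56.9% of all genes). Examples chosen after their values were seen are the prohormone convertase Pcsk1, at -1.21 in the later pairs and -0.21 in the E16 pairs, and the granule protein Scg2, at -0.99 in the later pairs and -0.07 in the E16 pairs. The carboxypeptidase Cpe, chosen likewise, stood at -0.51 in the later pairs and 0.58 in the E16 pairs.

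Genes of granule release had a median of -0.13 over 19 measured, with 0 past the threshold in limma (3 lower and 2 higher with an unadjusted p under 0.05). The small GTPases Rab27a, at 1.23 ± 0.72, and Rab27b, at 0.76 ± 0.36 (SD, n = 4 each), had positive ratios and adjusted p of 0.127 and 0.0897. Serotonin handling had a median of -0.81 over 8 measured, with 0 past the threshold in limma (3 with an unadjusted p under 0.05, all lower). Its means were spread, up to 0.23 for Ddc, which had 1.815 in the E18 pair. Of the 8, 4 were below 0 in all 4 pairs (14.4% of all genes). With columns scaled to one spread 1 passed, with array weights 2 and without the E18 pair 3, all lower. The serotonin transporter Slc6a4 stood at -1.80 ± 0.76 (adjusted p = 0.0729, and 0.0429 without the E18 pair) and the vesicle transporter Slc18a1 at -0.61 ± 0.34 (adjusted p = 0.119; SD, n = 4 each). Tph1, the enzyme that starts serotonin synthesis, chosen after its values were seen, had -0.52 and -0.19 in the E16 pairs, -1.14 in the E18 pair and -2.16 in the P0 pair. It was lowest in the P0 pair, as were Gcg, Cck, Tac1, Gip, Chga and Sst, whereas Slc18a1 had -0.90 and -0.92 in the E16 pairs, -0.34 in the E18 pair and -0.29 in the P0 pair.

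Receptors for nutrients and for the hormones themselves gave little ratio to read. Of 13 nutrient-sensing genes, 12 lay inside the negative control range (56.9% of all genes) and 1 passed, higher: the long-chain fatty acid receptor Ffar4, with 1.18 and 1.01 for E16, 0.78 in the E18 pair and 1.42 in the P0 pair. Its mean was 1.10 ± 0.27 (SD, n = 4; adjusted p = 0.0293), and it missed without the P0 pair or either E16 pair. Of 19 receptors of gut hormones, 18 lay inside the range and 0 passed in limma (0 with an unadjusted p under 0.05), with the neurotensin receptor Ntsr2 at -0.07 ± 0.040 and the cholecystokinin receptor Cckar at -0.04 ± 0.035 (SD, n = 4 each). A ratio near 0 does not tell a gene that is equal in both cultures from one too dim to measure.

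The transcription factors of the lineage had a median of -0.28 over 18 measured, and 12 were below 0 in all 4 pairs (14.4% of all genes). At an unadjusted p under 0.05, 8 were lower and 2 higher. Neurog3, which founds the lineage, passed lower at -1.11 ± 0.31 (SD, n = 4; adjusted p = 0.0370), with ratios of -0.93 in both E16 pairs, -1.57 in the E18 pair and -0.997 in the P0 pair. It passed without the E18 pair and missed without each of the others and with columns scaled to one spread. Without the E18 pair 3 of the list passed, 1 lower and 2 higher. Other factors named after their values were seen lay on both sides of 0. Neurod1 had a mean of -1.45 ± 0.56 (SD, n = 4; adjusted p = 0.0633). Foxa1 at 0.92 ± 0.52 (adjusted p = 0.121) and Pdx1 at 0.48 ± 0.37 (adjusted p = 0.211; SD, n = 4 each) were above 0 in all 4 pairs. For 11 of the 18, both later ratios lay below both E16 ratios (24.8% of all genes).

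Among other secretory lineages, Paneth cell genes had mean ratios below 0 and goblet cell genes had mean ratios on both sides of 0. Not every Paneth cell gene was low in each pair. Nupr1, at 1.046 and 0.660, and Mmp7, at 0.211 and 0.225, were above 0 in the E16 pairs. Their means were -0.585 and -0.557, and neither passed in limma (adjusted p = 0.749 and 0.671). Of 8 Paneth cell genes, 3 passed lower (1.34% of all genes), Defa31 at -3.62, Lyz1 at -3.21 and Itln1 at -4.01, and the list's median was -3.12. Of these, 0 passed in limma without the P0 pair or either E16 pair (6, 5 and 5 with an unadjusted p under 0.05). Itln1 also missed with columns scaled to one spread (adjusted p = 0.0665), with 1 probe per gene (0.0523) and with a robust prior (0.0559), leaving 2. Near-identical copies of defensin and lysozyme genes may share a probe. For 7 of the 8 both later ratios lay below both E16 ratios (24.8% of all genes), though none passed the stage comparison in limma. Of 8 goblet cell genes, 1 passed lower (1.34% of all genes), the guanylin gene Guca2a at -2.47. In limma 0 passed without the P0 pair or either E16 pair, with 1 probe per gene or with a robust prior, where 2 to 3 had an unadjusted p under 0.05. The goblet list's median was -0.19, and 0 of the 8 had both later ratios below both E16 ratios (24.8% of all genes). Named after their values were seen, Zg16 averaged 0.78, with 1.62 in the E18 pair and 2.39 in the P0 pair, Clca1 averaged 0.65 and Ccl6 0.41, and the goblet list's median in the P0 pair was 1.03. Of 8 tuft cell genes 0 passed in limma (0 with an unadjusted p under 0.05), and the median was 0.002, with Avil at 0.41 and Pou2f3 at 0.05.

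**Figure D4:**
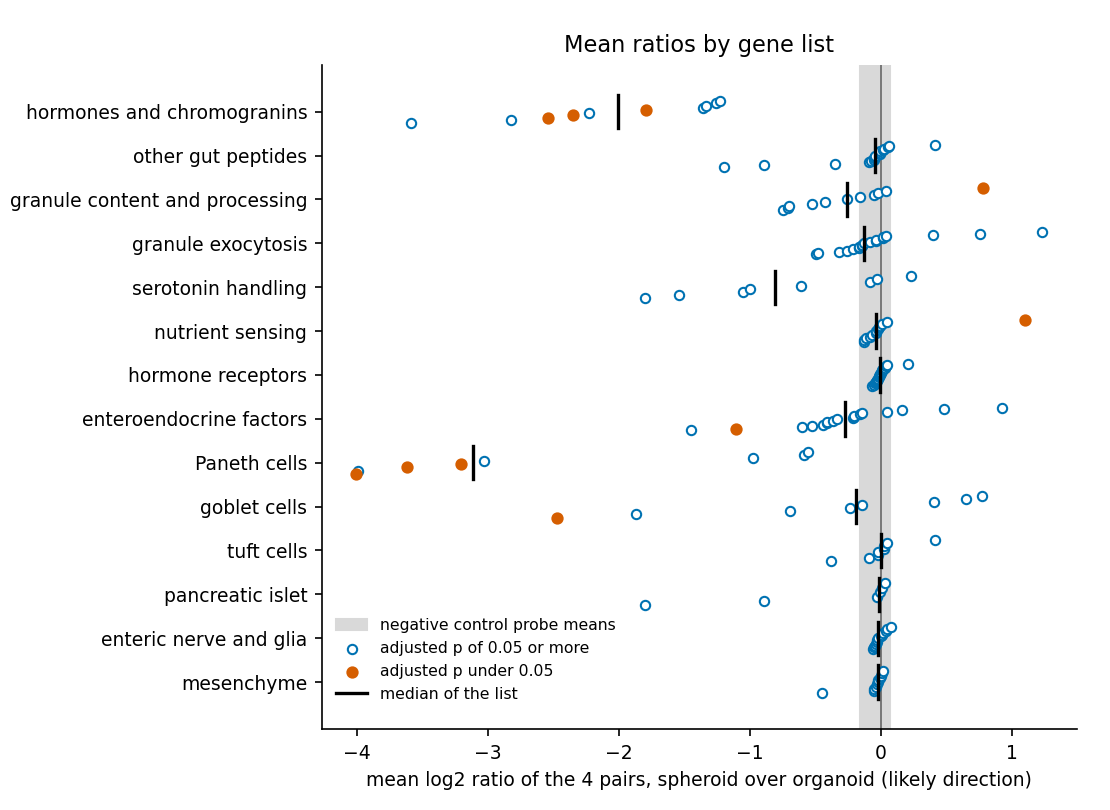
Each point is the mean log2 ratio of 1 gene over the 4 pairs, by gene list, filled where the adjusted p was under 0.05, with a black bar at each list's median and the grey band at the range of the negative control probes. The hormones and chromogranins have a median of -2.01 and lie wholly left of the band, while hormone receptors and enteric nerve and glia genes lie almost wholly in it.

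Tac1, Sst, Nts and the chromogranins are also made by neurons. Of 13 measured genes of enteric nerve and glia, 12 lay inside the negative control range (56.9% of all genes), 0 passed in limma (0 with an unadjusted p under 0.05), and the list's median ran from -0.04 in the second E16 pair to 0.02 in the E18 pair. The neurofilament Nefm, at -0.06, was its lowest and the glial protein S100b, at 0.07, its highest. Of 11 mesenchyme genes, 10 lay inside the range and 0 passed in limma (0 with an unadjusted p under 0.05), with the smooth muscle actin Acta2 at -0.05. Vim, which the epithelium can also express, stood at -0.45 ± 0.39 (SD, n = 4). Of 6 islet genes, 4 lay inside the range, near the share of all genes, and 0 passed in limma (2 with an unadjusted p under 0.05, both lower). Without the E18 pair or with array weights 2 passed, both lower. The 2 genes with an unadjusted p under 0.05 in all 4 pairs together were Iapp and the glucose transporter Slc2a2 at -1.81 ± 0.82 (SD, n = 4), which absorptive cells also make.

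The genes most like each hormone were sought by Euclidean distance over the ratios of the 4 pairs, in log2 units. For Chga the nearest was Bex2 (distance 0.53), with -0.60 and -0.46 in the E16 pairs, -1.43 in the E18 pair and -1.81 in the P0 pair. Greb1 (0.55) and Vav3 (0.56) followed. For Nts they were Slamf9 (0.77), Bex1 (0.88) and Slc14a1 (1.07), and for Pyy Slc14a1 (0.94), Bmp7 (1.21) and Slc12a2 (1.31). Chgb was nearest to Gpc3 (0.63), Pigr (0.69) and Pdgfa (0.74), and Sct to Socs2 (0.61), Clca3b (0.62) and Amn (0.66). Bex1 was above 0 in both E16 pairs, at 0.31 and 0.34, and low in the later pairs.

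Tac1 shared Gpc3 (0.77) as its nearest gene, before Reg4 (0.86) and Hebp1 (0.96). Sst was nearest to Tinag (0.71), Clec2e (0.82) and Gadd45a (0.83). Cck was nearest to Ang4 (0.78), Afp (1.01) and H1f10 (1.27), and Gip to Afp (1.14) and then to Cck (1.35) and Tac1 (1.43), the only hormones among these neighbours. Gcg had no close neighbour. Its nearest, Ang4, was 2.35 away, ahead of Itln1 (2.39) and Defa31 (2.46). The closest of the 10 genes to each other were Tac1 and Chgb, at 1.31.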

How the data were processed

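For each pair the authors deposited 1 log2 ratio for each of 38083 probes. No label states the base, and log2 was taken from the size of the values. The sources used here do not give how the authors corrected, normalized and combined the dye-swapped arrays. Column medians lay between -0.0055 and -0.001. Spheroid over organoid is the likely direction, from the titles and channel order, and all columns correlated positively. GEO's platform annotation named 22941 probes. The 22305 named gene probes were averaged to 15123 genes, with symbols updated by gene ID from RefSeq (GRCm38.p6), and the 3005 probes with a control, transgene or viral prefix were left out. The 94 negative control probes gave the background range.

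limma 3.58.1 in R 4.3.3 tested the mean of the 4 pairs against 0, and the E18 and P0 pairs against the E16 pairs, two-sided. P-values were adjusted by Benjamini-Hochberg across the 15123 genes, and 0.05 was the threshold. Both fits were tested on simulated data with independent pairs, so pairs that share an embryo or litter were not covered. Neighbours in the order of the 10 genes were compared with exact sign-flip permutation tests. The 4 pairs form 1 group, per the labels.

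The 10 genes and the other lists were chosen with earlier results of these data known. Named besides the 10 were, per list, up to 4 genes past the threshold with the largest moderated t (or the 2 largest where none passed), and the 3 nearest genes of each hormone. List genes without a named probe were not analysed here. Alternatives were columns scaled to one spread or centred, a robust prior, 1 probe per gene, array weights, control probes included, the E16 pairs averaged and each pair left out.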

Additional observations from a re-analysis of the deposited data

Results flagged for a closer look

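Of the 10 hormone and granule genes, 0 had a pair that stood apart from the other pairs by Dixon's test. Among all 32 genes checked, 1 did. The E18 pair of Neurog3, at -1.57, was well separated from the remaining ones, at -0.997 to -0.93. Chance alone puts about 1 gene in 20 apart in this way.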

How the results depend on the processing

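The spheroid and organoid of an animal enter as 1 ratio, so the test of the mean ratio against 0 is already paired. The ratios form 1 group, and no further pairing could be added. Stage as a random block could not be fitted, since limma gives no correlation for 3 stages in 4 pairs. Over all genes 660 passed for the spheroid over organoid ratio, against 256 that were also at least 1 in size, 1417 with array weights, 4 with the E16 pairs averaged and 0 to 740 without each pair. For the 10 genes, 3 passed, against 0 with the E16 pairs averaged and 0 to 2 without each pair (0 without either E16 pair). These fits held fewer pairs and their counts differed with the pair left out, and the cause was not tested. Among the other lists 7 genes passed, 16 with array weights, 4 with 1 probe per gene, 0 with the E16 pairs averaged and 0 to 15 without each pair. For later minus E16, 0 genes passed, against 0 to 1544 over all genes and 0 to 5 of the 10 without each pair. Sst reversed there: its difference of -0.45 ran from -1.67 without the E18 pair to 0.78 without the P0 pair. The 10 mean ratios kept a negative sign under all 11 alternatives each. Scaling, centring, the prior, array weights, control probes and 1 probe per gene left Chgb, Tac1 and Sct as the 3 that passed. Brightness over background is unknown, so genes near 0 may be below detection.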
